A study of Mus musculus with 3 samples.

Results

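Interferon-inducible genes were followed as a set of 32 mouse gene symbols, taken by a list of names. The deposited count files held a row for 31 of the 32 among 32285 genes, and Mx1 was not analysed here. All 31 had UMIs, the molecule counts of droplet sequencing, in each of the 3 libraries of the study.

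Interferons are secreted cytokines that bind paired receptors on the cell surface, and the kinases JAK1, JAK2 and TYK2 attached to those receptors then phosphorylate STAT proteins. Type I interferons bring a complex that holds STAT2 and IRF9 to a DNA element called ISRE, whereas interferon gamma acts mainly through an element called GAS. Their target genes encode proteins that block viruses and intracellular bacteria, and several of them are expressed at a basal level in hematopoietic stem cells without infection.

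The study deleted Skida1, named for its SKI/DACH domain, in neonatal blood progenitors that carry the leukemia fusion MLL-ENL. RNA and surface tags were counted together (CITE-seq, 10x Genomics 3' chemistry on polyA RNA) in liver cells of mice on postnatal day 0, sorted as Lin-Kit+, without mature lineage markers and with the stem cell factor receptor KIT. There was 1 library for each of 3 groups: mice with the fusion and Skida1 deleted (MLL::ENL; Skida1-deleted), mice with the fusion alone (MLL::ENL, written MLL-ENL), and Control mice. All groups shared the tissue, the age and the sort. The sources used here do not give the strain, the alleles, the promoter or Cre behind the fusion and the deletion, the number of pooled animals or the genotype of Control mice.

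No interferon treatment is named in the labels, so all levels are those of cells taken directly from the animals. With a single library behind every group, the differences below carry no p-value and no replicate check. Brackets give exact 95% intervals that cover counting error only, not differences between animals or preparations. Levels are given in CPM, the UMIs of a gene divided by all gene UMIs of a cell class and scaled to a total of 1000000. In a 3' library 1 UMI stands for 1 captured transcript whatever its length, so levels were not divided by gene length. Levels of genes with close relatives, named below, also depend on how reads are split between them. A member was called higher or lower at a ratio of at least 1.5 in either direction, with at least 5 CPM in either library.

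The kept cells numbered 9376 in Skida1-deleted, 10797 in MLL-ENL and 5391 in Control. Their median gene UMIs were 17285.5 in Skida1-deleted, 13927 in MLL-ENL and 28023 in Control. The Skida1-deleted and MLL-ENL libraries shared 33 cell barcodes, MLL-ENL and Control shared 17, and Skida1-deleted and Control shared 20. Skida1 itself stood at 1.79 CPM in Skida1-deleted, 16.9 CPM in MLL-ENL and 1.26 CPM in Control in the class of stem and multipotent progenitors. Xist stood at 5.76 CPM in Skida1-deleted, 1782 in MLL-ENL and 1007 in Control in that class, and the Y-linked gene Ddx3y at 77.9 CPM in Skida1-deleted, 0 in MLL-ENL and 0 in Control. Differences by the sex of the animals and by Skida1 deletion therefore cannot be told apart.

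Cells were clustered on variable genes from which the members, related interferon genes, cell cycle genes and histone genes had been left out, so the members' levels were not used to form the classes. Clusters were named from markers as HSPC-like (hematopoietic stem and progenitor), lymphoid progenitor-like, granulocyte progenitor-like, megakaryocyte-like, erythroid-like and basophil-mast-like. These 6 classes had at least 100 cells in every library and were compared. HSPC-like cells numbered 1583 in Skida1-deleted, 1134 in MLL-ENL and 761 in Control. They held 15616503 gene UMIs in Skida1-deleted, 12877540 in MLL-ENL and 11923503 in Control. In all 3 libraries 7 of 8 HSPC markers lay at least 1.5-fold above the other classes, all but Mllt3. Of 9 lymphoid progenitor markers, 8 lay so in Skida1-deleted (not Dntt), 7 in MLL-ENL (not Dntt or Cd2) and 8 in Control (not Cd2). Erythroid-like cells came partly from different clusters: 1 cluster held 1723 of the 3175 erythroid-like cells of Control against 32 in Skida1-deleted and 2 in MLL-ENL. Another, of low depth, held 2968 of 7459 erythroid-like cells of MLL-ENL against 156 in Skida1-deleted and 31 in Control. The lymphoid progenitor-like class reached 100 cells per library in the main clustering but not under 7 of the alternative settings, so its values rest on that clustering.

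RefSeq promoter entries (GRCm38.p6, 250 bases before to 50 after the annotated start) existed for 25 of the 32 genes. The ISRE core was searched on both strands as TTTC, any 2 bases and TTTC, which reads GAAA, any 2 bases and GAAA on the other strand. It was present in 14 of these 25 genes (56.0%), against 3.99% of all 27025 genes with entries of the same length. On the strand of the gene alone it was present in 5 of 25 (20%), against 1.96% of all genes. The 14 genes were Bst2, Ifi203, Ifih1, Ifit1, Ifit3, Ifitm3, Igtp, Irgm1, Isg15, Oas1a, Oas3, Rsad2, Stat2 and Trim30a. The GAS core TTCNNNGAA, which reads the same on both strands, was present in Bst2, Ifi35, Ifit2, Ifitm3, Igtp and Oas1a, or 6 of 25 (24.0%), against 9.55% of all genes. Matches of the ISRE core overlapped each other in Bst2, Irgm1, Isg15 and Oas1a.

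The 130 bases before the annotated start are printed for 6 members that were past 1.5-fold in the same direction in at least 3 classes in a comparison, so that the difference in element content can be seen beside their levels. Capitals mark the ISRE core on either strand, all sequences run 5′ to 3′ on the strand of the gene, and the starts of Ifitm1 and Ifi203 lie within the annotated spans of those genes.
Irgm1, chr11:48871421-48871550, minus strand: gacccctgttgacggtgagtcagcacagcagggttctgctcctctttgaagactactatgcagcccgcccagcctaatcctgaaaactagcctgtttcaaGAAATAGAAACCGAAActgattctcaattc
Ifit1, chr19:34640759-34640888, plus strand: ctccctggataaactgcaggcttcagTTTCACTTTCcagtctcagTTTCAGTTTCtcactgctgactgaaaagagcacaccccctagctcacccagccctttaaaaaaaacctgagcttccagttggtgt
Isg15, chr4:156200819-156200948, minus strand: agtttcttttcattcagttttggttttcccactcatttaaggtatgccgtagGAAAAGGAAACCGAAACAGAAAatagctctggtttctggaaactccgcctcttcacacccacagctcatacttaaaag
Ifi203, chr1:173942493-173942622, minus strand: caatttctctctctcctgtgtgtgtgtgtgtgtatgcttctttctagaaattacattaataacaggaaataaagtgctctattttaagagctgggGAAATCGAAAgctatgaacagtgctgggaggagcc
Ifitm1, chr7:140967946-140968075, plus strand: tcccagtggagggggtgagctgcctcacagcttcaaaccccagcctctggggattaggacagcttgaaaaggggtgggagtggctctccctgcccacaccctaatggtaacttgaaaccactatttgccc
Ifi47, chr11:49076457-49076586, plus strand: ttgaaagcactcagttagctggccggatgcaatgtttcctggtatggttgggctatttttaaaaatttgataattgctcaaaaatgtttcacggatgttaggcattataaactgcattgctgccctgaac
Isg15 held 3 overlapping matches, Irgm1 2 overlapping matches, Ifit1 2 separate matches and Ifi203 1 match, while the windows of Ifitm1 and Ifi47 held none. Ifi203 had 2 promoter entries, and the one printed was the one with more matches. The other entry held none. A match describes the letters of this window and not the binding of a factor.

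Summed over the 31 members and among the 6 compared classes, the level was highest in lymphoid progenitor-like and HSPC-like cells and lowest in erythroid-like cells in each library. The monocyte-dendritic-like class stood at 4201 CPM in Control, above the HSPC-like sum of that library. It was not compared because it held 1 cell in Skida1-deleted, 2 in MLL-ENL and 29 in Control in the main clustering. At Leiden resolution 2.0 it held 132 cells in Skida1-deleted, 165 in MLL-ENL and 298 in Control. Granulocyte progenitor-like cells then numbered 529 in Skida1-deleted, 454 in MLL-ENL and 292 in Control, against 610, 558 and 478 in the main clustering. The part of such cells in the granulocyte sums below was not tested. In lymphoid progenitor-like cells the sum was 3009 CPM in Skida1-deleted, 3151 in MLL-ENL and 4346 in Control. HSPC-like cells held 2115 CPM in Skida1-deleted, 2337 in MLL-ENL and 3931 in Control. Erythroid-like cells held 582 CPM in Skida1-deleted, 609 in MLL-ENL and 595 in Control, so the fusion libraries and Control lay close together there, while both fusion libraries lay below Control in the stem and lymphoid classes. Granulocyte progenitor-like cells held 1257 CPM in Skida1-deleted, 1382 in MLL-ENL and 2642 in Control, and megakaryocyte-like cells 1459 CPM in Skida1-deleted, 1528 in MLL-ENL and 1742 in Control. In granulocyte progenitor-like cells the sum in MLL-ENL was 0.523 [0.512–0.534] of that in Control, a wider gap than the 0.877 [0.858–0.896] of megakaryocyte-like cells. In erythroid-like cells the ratio was 1.02 [1.01–1.03], and 0.998 without the low-depth clusters. The erythroid-like clusters pooled there differed in size between the libraries. Clusters with at least 100 cells in both gave 654 CPM in MLL-ENL against 645 in Control, 1051 against 1008 and 425 against 492. Clusters with fewer Control cells went either way, as with 500 in MLL-ENL against 836 in Control, and 664 against 608. The part of cluster make-up in the class ratio was not tested. In basophil-mast-like cells the sum was 1712 CPM in Skida1-deleted, 1457 in MLL-ENL and 2959 in Control, and Ifitm1, Ifitm3 and Bst2 made up 72.8% of it in Skida1-deleted, 64.9% in MLL-ENL and 77.8% in Control.

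The membrane proteins Ifitm1, Ifitm3 and Bst2 made up 46.2% of the members' UMIs in HSPC-like cells of Skida1-deleted, 49.4% in MLL-ENL and 55.5% in Control. Without them, a choice made after their levels had been seen, the other 28 members summed to 1137 CPM in Skida1-deleted, 1182 in MLL-ENL and 1749 in Control in HSPC-like cells. The same 28 summed to 1693 CPM in Skida1-deleted, 1695 in MLL-ENL and 2388 in Control in lymphoid progenitor-like cells and to 321 CPM in Skida1-deleted, 364 in MLL-ENL and 338 in Control in erythroid-like cells. Lymphoid progenitor-like cells were highest and erythroid-like cells lowest among these 3 classes with or without the membrane proteins.

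**Figure D1:**
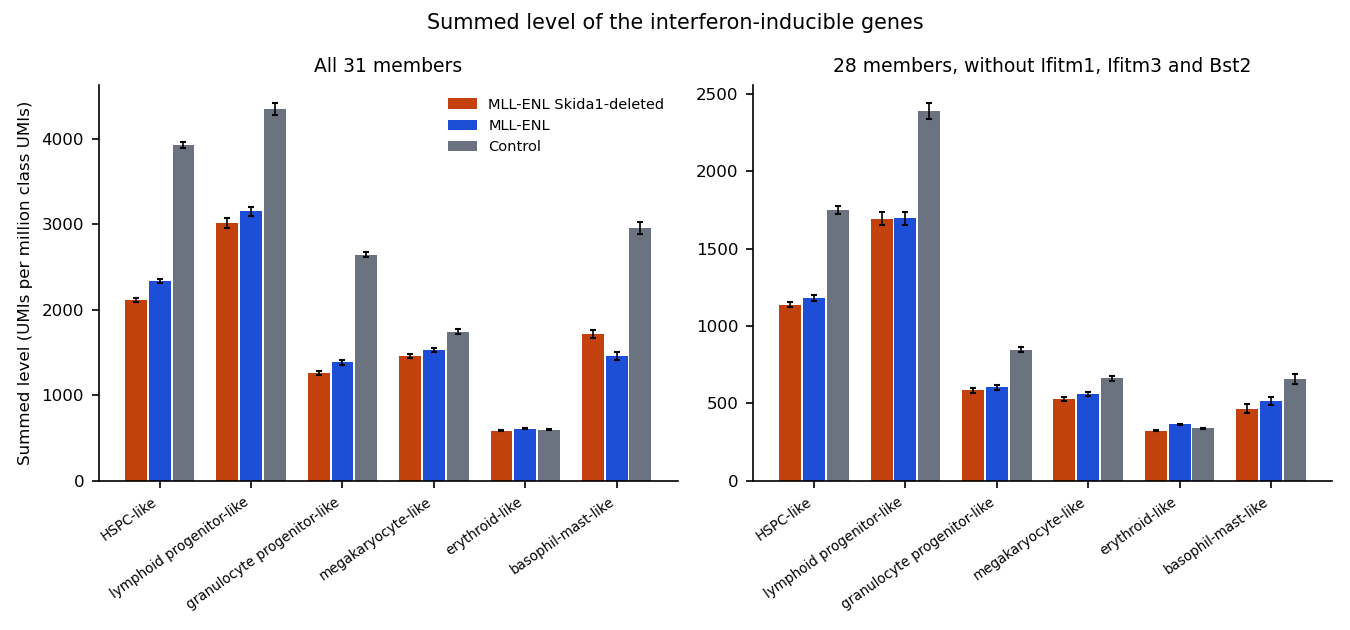
Summed level of all 31 members (left) and of 28 members without Ifitm1, Ifitm3 and Bst2 (right) in 6 cell classes, in CPM, for the Skida1-deleted, MLL-ENL and Control libraries (1 library each; lines are exact 95% counting intervals). Sums are highest in lymphoid progenitor-like and HSPC-like cells and lowest in erythroid-like cells, where the 3 libraries lie between 582 and 609 for all members.

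Skida1 deletion within the fusion was compared first. In HSPC-like cells the summed level was 0.905 [0.891–0.919] of that in MLL-ENL, and it ranged from 0.890 to 0.937 as each member was left out in turn. All 31 members reached 5 CPM in either library. Of these, 3 were called lower in Skida1-deleted (Irgm1, Ifit1 and Ifit3) and 1 higher (Isg15), while counting intervals lay wholly below 1 for 12 members and above 1 for 5. Of all 9591 genes tested in this class, 1.5% were called lower and 2.05% higher. These shares belong to the 1.5-fold calls. No share of all genes is given for the interval counts, which are therefore not read as a trait of the members. The median log2 ratio of the members was -0.11, beside -0.02 for all genes tested. Most members therefore lay within 1.5-fold between the fusion libraries, and counts this small rest on single genes.

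Irgm1, an immunity-related GTPase that acts on autophagy and membrane targeting of pathogens and that preserves stem cells under inflammation in mice, was called lower in Skida1-deleted in each class. In HSPC-like cells it stood at 20.6 CPM in Skida1-deleted, 39.5 in MLL-ENL and 61.7 in Control, a ratio of Skida1-deleted to MLL-ENL of 0.520 [0.451–0.599]. Lymphoid progenitor-like cells held 21.5 CPM in Skida1-deleted, 45.9 in MLL-ENL and 69.6 in Control, and granulocyte progenitor-like cells 12.04 CPM in Skida1-deleted, 23.9 in MLL-ENL and 34.7 in Control. Skida1-deleted was lowest in each of these classes and Control highest. Megakaryocyte-like cells held 15.04 CPM in Skida1-deleted, 29.0 in MLL-ENL and 39.1 in Control. In erythroid-like cells, the deepest class, Irgm1 stood at 16.2 CPM in Skida1-deleted, 39.6 in MLL-ENL and 40.1 in Control. MLL-ENL and Control lay side by side there, and only Skida1-deleted was low, with a ratio to MLL-ENL of 0.408 [0.389–0.429]. Basophil-mast-like cells held 13.2 CPM in Skida1-deleted, 37.1 in MLL-ENL and 55.7 in Control.

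Across the 6 classes the ratio of Skida1-deleted to MLL-ENL for Irgm1 ran from 0.355 to 0.520, and it was past 1.5-fold in all 6 and under every alternative setting with a value for that class. Its 3' reads can be shared with the related gene Irgm2, which itself stood at 4.23 CPM in Skida1-deleted, 7.69 in MLL-ENL and 9.39 in Control in HSPC-like cells, a ratio of 0.550 [0.396–0.758]. Among cells thinned to 3000 UMIs, 5.69% [4.59–6.95] of HSPC-like cells of Skida1-deleted had an Irgm1 UMI, against 12.3% [10.4–14.3] in MLL-ENL and 15.8% [13.3–18.6] in Control. The shares in erythroid-like cells, thinned to the same depth, were 4.93% in Skida1-deleted, 10.7% in MLL-ENL and 10.9% in Control.

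Ifit1, which binds viral RNA that lacks a host cap mark, was the other member lower in at least 3 classes. In HSPC-like cells it stood at 14.5 CPM in Skida1-deleted, 24.8 in MLL-ENL and 54.0 in Control, a ratio of 0.584 [0.490–0.695] for Skida1-deleted over MLL-ENL. The difference was past 1.5-fold in the smaller of the 2 HSPC-like clusters and within 1.5-fold in the larger one. In lymphoid progenitor-like cells it stood at 26.5 CPM in Skida1-deleted, 43.4 in MLL-ENL and 71.9 in Control. The ratio there was 0.610 [0.468–0.791], so that in both classes the order from Skida1-deleted through MLL-ENL to Control was upward. Levels were far lower in megakaryocyte-like cells, with 6.70 CPM in Skida1-deleted, 12.7 in MLL-ENL and 12.1 in Control, and in granulocyte progenitor-like cells, with 5.33 CPM in Skida1-deleted, 7.92 in MLL-ENL and 9.45 in Control. Basophil-mast-like cells held 2.26 CPM in Skida1-deleted, 7.17 in MLL-ENL and 9.14 in Control and erythroid-like cells 1.70 CPM in Skida1-deleted, 2.66 in MLL-ENL and 1.42 in Control. In the erythroid class both fusion and Control levels lay under 5 CPM, below the minimum for a call. At least 1 Ifit1 UMI was seen in 4.15% [3.22–5.26] of thinned HSPC-like cells in Skida1-deleted, 7.41% [5.95–9.09] in MLL-ENL and 15.6% [13.1–18.3] in Control, and in erythroid-like cells the shares were 0.584% in Skida1-deleted, 1.27% in MLL-ENL and 0.575% in Control.

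The neighbouring genes Ifit2 and Ifit3, whose products bind Ifit1 or RNA, did not share 1 pattern. Ifit3 stood at 2.31 CPM in Skida1-deleted, 6.21 in MLL-ENL and 11.2 in Control in HSPC-like cells, a ratio of 0.371 [0.243–0.556] for Skida1-deleted over MLL-ENL that rests on 36 UMIs in Skida1-deleted and 80 UMIs in MLL-ENL, and it is nearly identical to Ifit3b and the split of reads between them is uncertain. Ifit2 stood at 14.7 CPM in Skida1-deleted, 16.2 in MLL-ENL and 14.6 in Control, with a ratio of 0.912 [0.753–1.11].

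Isg15, a ubiquitin-like protein that is joined to other proteins after interferon signalling, went the other way. In HSPC-like cells it stood at 43.4 CPM in Skida1-deleted, 27.1 in MLL-ENL and 161 in Control, a ratio of 1.602 [1.41–1.83] for Skida1-deleted over MLL-ENL. This was past 1.5-fold under 6 of 14 alternative settings that keep the HSPC-like class, with a range over them from 1.40 to 1.64, and no setting reversed it. The ratio was above 1 in each of the 6 classes, from 1.16 to 1.602, but past 1.5 only in HSPC-like cells. Both fusion libraries stayed far below Control.

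In the remaining classes few members were called between Skida1-deleted and MLL-ENL. In lymphoid progenitor-like cells 2 of 31 members were lower, Irgm1 and Ifit1, and 0 higher, beside 3.7% of all genes lower and 5.76% higher. In granulocyte progenitor-like cells 1 of 27 was lower, Irgm1, beside 3.18% of all genes, and 0 were higher, beside 2.41%. The lower count was between 0 and 4 across the alternative settings, and without the low-depth clusters it was 2. In megakaryocyte-like cells Irgm1, Ifit1 and Rtp4 were lower of 27, beside 1.53% of all genes, and 0 were higher, beside 2.44%. Rtp4, which moves receptors to the cell surface and dampens interferon signalling, stood there at 27.3 CPM in Skida1-deleted, 44.9 in MLL-ENL and 57.9 in Control, a ratio of 0.609 [0.532–0.697].

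In erythroid-like cells 1 of 19 members was lower, Irgm1, and 1 higher, Ifitm1, beside 1.02% and 1.05% of all genes. Ifitm1, a membrane protein that hinders virus entry and is also expressed in early germ and blood progenitors, stood at 57.2 CPM in Skida1-deleted, 26.3 in MLL-ENL and 21.2 in Control there, a ratio of 2.18 [2.09–2.26] for Skida1-deleted over MLL-ENL. The UMIs came mostly from 1 cluster, with 394 CPM in Skida1-deleted, 146 CPM in MLL-ENL and 130.3 CPM in Control. When cells took their class from a marker score the ratio was 0.980, so this call depends on which cells count as erythroid.

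Over all kept cells, Irgm1 and Ifit1 were lower of 26 members, beside 0.742% of all genes, and 0 were higher, beside 1.05%.

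Basophil-mast-like cells, with 210 cells in Skida1-deleted, 225 in MLL-ENL and 147 in Control, showed 6 of 28 members lower in Skida1-deleted and 2 higher, beside 7.38% and 5.55% of all genes. Irgm1, Ifit1, Oasl1, Usp18, Ifi27l2a and Rtp4 were lower. Oasl1, a translational brake on Irf7 in mice, had 3.77 CPM in Skida1-deleted, 11.4 in MLL-ENL and 11.8 in Control, a ratio of 0.330 [0.146–0.682]. Usp18, the protease that removes Isg15 and restrains the type I receptor, had 4.52 CPM in Skida1-deleted, 9.12 in MLL-ENL and 13.5 in Control, and its interval of 0.495 [0.229–1.01] reached 1. Ifi203 and Oas1a were higher, with ratios of 2.35 [1.54–3.62] and 1.70 [0.918–3.23], the second with an interval that included 1.

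Several further members stood at the ends of the ratios of Skida1-deleted to MLL-ENL without passing 1.5-fold. In HSPC-like cells Usp18 gave 0.681 [0.539–0.859] at the low end, while Oas1a, Oas3 and Oas2 followed Isg15 at the high end with 1.42 [1.16–1.74], 1.30 [1.11–1.53] and 1.15 [0.925–1.44]. Among lymphoid progenitor-like cells Zbp1 stood at 9.02 CPM in Skida1-deleted, 12.2 in MLL-ENL and 15.5 in Control, a ratio of 0.738 [0.455–1.18], and Ifit3 at 17.5 CPM in Skida1-deleted, 22.7 in MLL-ENL and 45.5 in Control, a ratio of 0.769 [0.546–1.08]. At the high end there, Oas1a stood at 17.7 CPM in Skida1-deleted, 13.5 in MLL-ENL and 12.7 in Control, Stat2 at 23.3 CPM in Skida1-deleted, 19.2 in MLL-ENL and 19.3 in Control and Ifi27l2a at 145 CPM in Skida1-deleted, 121 in MLL-ENL and 110.2 in Control, with 1.32 [0.899–1.94], 1.21 [0.875–1.68] and 1.20 [1.06–1.36]. The synthetase Oas1a was thus among the 4 highest ratios in 5 of the 6 classes, past 1.5-fold in basophil-mast-like cells alone, where it stood at 10.5 CPM in Skida1-deleted, 6.19 in MLL-ENL and 4.35 in Control.

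Granulocyte progenitor-like cells held Ifit2 at 5.22 CPM in Skida1-deleted, 7.69 in MLL-ENL and 6.51 in Control and Ifi27l2a at 17.3 CPM in Skida1-deleted, 25.1 in MLL-ENL and 29.7 in Control, with 0.679 [0.459–0.999] and 0.688 [0.557–0.849]. Higher in Skida1-deleted there, but within 1.5-fold, were Irf7 with 25.8 CPM in Skida1-deleted, 18.9 in MLL-ENL and 29.5 in Control, Oas3 with 9.16 CPM in Skida1-deleted, 7.21 in MLL-ENL and 6.97 in Control and Oas1a with 11.7 CPM in Skida1-deleted, 9.93 in MLL-ENL and 9.06 in Control, at 1.36 [1.11–1.67], 1.27 [0.904–1.79] and 1.18 [0.880–1.59]. In megakaryocyte-like cells Usp18 stood at 8.34 CPM in Skida1-deleted, 12.2 in MLL-ENL and 13.9 in Control, a ratio of 0.681 [0.527–0.877]. Oas1a stood at 10.2 CPM in Skida1-deleted, 7.38 in MLL-ENL and 6.44 in Control there, Oas2 at 5.21 CPM in Skida1-deleted, 3.94 in MLL-ENL and 2.58 in Control, Stat2 at 7.07 CPM in Skida1-deleted, 5.62 in MLL-ENL and 8.66 in Control and Rsad2 at 16.2 CPM in Skida1-deleted, 13.4 in MLL-ENL and 16.9 in Control, with 1.38 [1.05–1.83], 1.32 [0.900–1.96], 1.26 [0.911–1.75] and 1.21 [0.981–1.49]. Erythroid-like cells held Oasl1 at 8.63 CPM in Skida1-deleted, 10.7 in MLL-ENL and 9.31 in Control, Usp18 at 9.50 CPM in Skida1-deleted, 11.6 in MLL-ENL and 17.1 in Control and Ifit2 at 5.78 CPM in Skida1-deleted, 5.38 in MLL-ENL and 5.40 in Control, with 0.805 [0.746–0.869], 0.820 [0.762–0.882] and 1.07 [0.972–1.19]. Usp18 was among the 4 lowest ratios in HSPC-like, megakaryocyte-like, erythroid-like and basophil-mast-like cells, within 1.5-fold in all but the last.

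**Figure D2:**
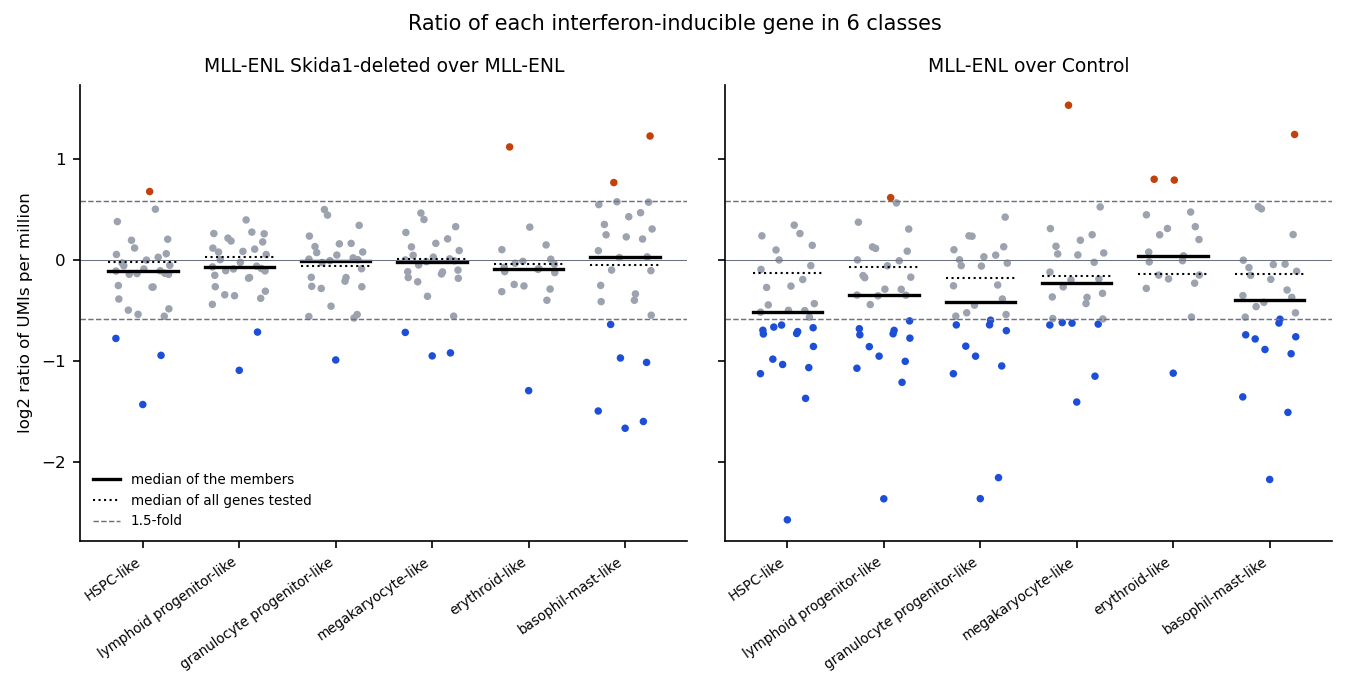
Log2 ratio of CPM for each member with at least 5 CPM in either library, by class, for Skida1-deleted over MLL-ENL (left) and MLL-ENL over Control (right), 1 library per group. Points past 1.5-fold (dashed lines) are coloured, solid bars are member medians and dotted bars medians of all genes tested; 14 of 31 members lie past the lower line in HSPC-like cells on the right, against 3 on the left.

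The fusion was compared with Control next. In HSPC-like cells the summed level in MLL-ENL was 0.594 [0.586–0.603] of that in Control, from 0.580 to 0.655 as each member was left out, and the 28 members without Ifitm1, Ifitm3 and Bst2 gave 0.676 [0.662–0.690]. Of 31 members, 14 were called lower in MLL-ENL and 0 higher, beside 16.7% of all 9866 genes lower and 7.81% higher. The 14 were Isg15, Ifitm1, Ifit1, Ifi44, Ifi47, Oasl2, Ifit3, Ifitm3, Ifi35, Usp18, Ifi203, Ifih1, Rtp4 and Irgm1. The median log2 ratio was -0.52 for the members and -0.13 for all genes tested. With a stricter cell filter (at least 3000 UMIs, 1000 genes and under 5% mitochondrial UMIs), which kept 653 HSPC-like cells in MLL-ENL and 320 in Control, 5 members were lower and 2 higher. It kept 7627 of 9376 cells in Skida1-deleted, 6086 of 10797 in MLL-ENL and 2685 of 5391 in Control. Which of its limits removed the cells was not tested. Its clustering named no lymphoid progenitor-like class, so its HSPC-like class may hold other cells than the main one. No share of all genes is given for that filter.

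By class, lymphoid progenitor-like cells had 12 of 31 members lower and 1 higher, beside 16.8% and 13.7% of all genes. Granulocyte progenitor-like cells had 10 of 28 lower and 0 higher, beside 17.5% and 7.18%. Basophil-mast-like cells had 10 of 28 lower and 1 higher, beside 18.9% and 9.1%. In these classes the share of members called lower was above the share of all genes. Megakaryocyte-like cells had 6 of 26 lower and 1 higher, beside 15.7% and 6.22%, and TMM scaling, which moves the median of all genes by 0.16 on the log2 scale, left 2 lower and 2 higher. The same scaling moved that median by 0.12 in granulocyte progenitor-like cells, where 6 were then lower, and by 0.13 in basophil-mast-like cells. No share of all genes is given under TMM scaling, so the counts under it are not set against all genes. Erythroid-like cells had 1 of 19 lower and 2 higher, beside 12.0% and 6.13%. Over all kept cells 5 of 26 were lower and 0 higher, beside 12.2% and 4.95%. In at least 3 of the 6 classes, 10 members were lower in MLL-ENL: Isg15, Ifitm1, Ifi47, Ifi203, Oasl2, Igtp, Ifih1, Ifi35, Irgm1 and Ifitm3. The matching share of all genes is not given, so this count is not read as a trait of the members.

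Isg15 had the lowest ratio of MLL-ENL to Control in HSPC-like cells. At 43.4 CPM in Skida1-deleted, 27.1 in MLL-ENL and 161 in Control it gave a ratio of MLL-ENL to Control of 0.168 [0.150–0.189]. Lymphoid progenitor-like cells held 55.0 CPM in Skida1-deleted, 45.9 in MLL-ENL and 236 in Control, a ratio of 0.194 [0.165–0.228]. Control was thus several times above both fusion libraries in the classes where the gene was most abundant. Granulocyte progenitor-like cells held 19.9 CPM in Skida1-deleted, 14.1 in MLL-ENL and 62.7 in Control and megakaryocyte-like cells 14.4 CPM in Skida1-deleted, 12.4 in MLL-ENL and 32.9 in Control. Erythroid-like cells held 7.89 CPM in Skida1-deleted, 6.29 in MLL-ENL and 13.7 in Control and basophil-mast-like cells 11.7 CPM in Skida1-deleted, 7.82 in MLL-ENL and 35.3 in Control. Isg15 was the one member called lower in all 6 classes in this comparison, with ratios from 0.168 to 0.460. Among thinned HSPC-like cells 11.8% [10.2–13.5] had an Isg15 UMI in Skida1-deleted, 8.64% [7.07–10.4] in MLL-ENL and 33.8% [30.4–37.3] in Control, and in erythroid-like cells the shares were 2.56% in Skida1-deleted, 2.09% in MLL-ENL and 3.71% in Control.

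Ifitm1 stood at 246 CPM in Skida1-deleted, 343 in MLL-ENL and 886 in Control in HSPC-like cells, a ratio of MLL-ENL to Control of 0.387 [0.374–0.401]. Lymphoid progenitor-like cells held 274 CPM in Skida1-deleted, 290.2 in MLL-ENL and 609.6 in Control and granulocyte progenitor-like cells 99.2 CPM in Skida1-deleted, 112 in MLL-ENL and 575 in Control. Control was above both fusion libraries in each of these classes. Ifitm1 in basophil-mast-like cells gave the highest level of any member in the 6 classes of Skida1-deleted and of Control, though not of MLL-ENL, with 941 CPM in Skida1-deleted, 679 in MLL-ENL and 1932 in Control, a ratio of 0.352 [0.334–0.370]. Without Ifitm1 the summed ratio in that class was 0.758, in place of 0.492 [0.474–0.511]. Megakaryocyte-like cells held 235 CPM in Skida1-deleted, 237 in MLL-ENL and 272 in Control, and there the 3 libraries lay close together.

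Ifitm3, which blocks fusion of viruses in endosomes, stood at 548 CPM in Skida1-deleted, 590.5 in MLL-ENL and 980.3 in Control in HSPC-like cells. The ratio of MLL-ENL to Control was 0.602 [0.585–0.620]. Granulocyte progenitor-like cells held 357 CPM in Skida1-deleted, 402 in MLL-ENL and 876 in Control, lymphoid progenitor-like cells 773 CPM in Skida1-deleted, 833 in MLL-ENL and 926 in Control and megakaryocyte-like cells 584 CPM in Skida1-deleted, 583 in MLL-ENL and 633 in Control. The gap to Control was widest in the granulocyte class, at 0.458 [0.441–0.476], and narrow in the lymphoid and megakaryocyte classes. Basophil-mast-like cells held 138 CPM in Skida1-deleted, 102 in MLL-ENL and 158 in Control and erythroid-like cells 84.0 CPM in Skida1-deleted, 75.7 in MLL-ENL and 73.4 in Control.

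Bst2, the tetherin that holds budding viruses on the membrane, had a flatter profile over the classes. It stood at 184 CPM in Skida1-deleted, 221 in MLL-ENL and 316 in Control in HSPC-like cells, 268 CPM in Skida1-deleted, 332 in MLL-ENL and 422 in Control in lymphoid progenitor-like cells and 219 CPM in Skida1-deleted, 265 in MLL-ENL and 347 in Control in granulocyte progenitor-like cells. Erythroid-like cells held 119.6 CPM in Skida1-deleted, 143 in MLL-ENL and 162 in Control, megakaryocyte-like cells 114 CPM in Skida1-deleted, 146 in MLL-ENL and 176 in Control and basophil-mast-like cells 168 CPM in Skida1-deleted, 164 in MLL-ENL and 212 in Control. Control was highest in all 6 classes, yet no class reached 1.5-fold between MLL-ENL and Control, where the ratios ran from 0.6996 to 0.879.

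**Figure D3:**
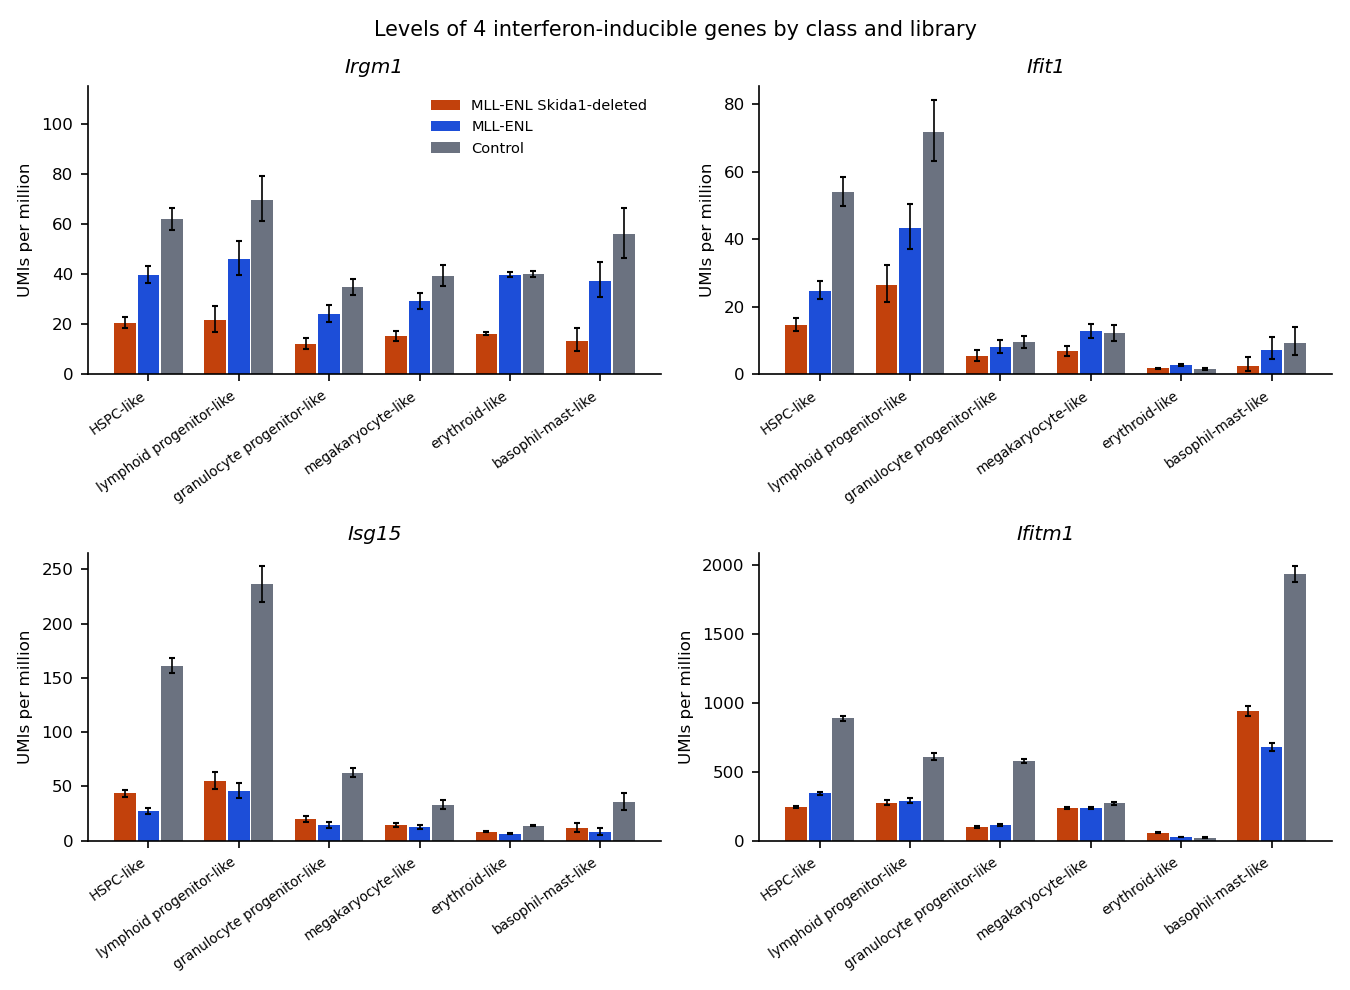
Levels of Irgm1, Ifit1, Isg15 and Ifitm1 in CPM by class in the Skida1-deleted, MLL-ENL and Control libraries (bars from 0; lines are exact 95% counting intervals; 1 library each). Irgm1 is lowest in Skida1-deleted in every class, with 16.2 against 39.6 in MLL-ENL in erythroid-like cells, while Isg15 is highest in Control in every class, with 161 against 27.1 in MLL-ENL in HSPC-like cells.

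The signalling members Stat2 and Irf9 encode parts of the ISRE-binding complex. Irf9 stood at 56.8 CPM in Skida1-deleted, 55.7 in MLL-ENL and 55.6 in Control in HSPC-like cells and 68.9 CPM in Skida1-deleted, 78.0 in MLL-ENL and 60.1 in Control in lymphoid progenitor-like cells. Erythroid-like cells held Irf9 at 38.9 CPM in Skida1-deleted, 42.4 in MLL-ENL and 30.5 in Control, a ratio of MLL-ENL to Control of 1.39 [1.33–1.45]. It reached 1.5-fold in no class in either comparison. Granulocyte progenitor-like cells held 28.8 CPM in Skida1-deleted, 34.5 in MLL-ENL and 35.9 in Control, megakaryocyte-like cells 37.6 CPM in Skida1-deleted, 43.6 in MLL-ENL and 41.8 in Control and basophil-mast-like cells 40.3 CPM in Skida1-deleted, 50.8 in MLL-ENL and 52.2 in Control. Stat2 was low, at 9.16 CPM in Skida1-deleted, 11.96 in MLL-ENL and 14.4 in Control in HSPC-like cells, where Skida1-deleted was called lower than Control at 0.635 [0.505–0.797]. In megakaryocyte-like cells, at 7.07 CPM in Skida1-deleted, 5.62 in MLL-ENL and 8.66 in Control, MLL-ENL was called lower than Control at 0.649 [0.459–0.915]. Irf7, the factor that amplifies type I interferon production, stood at 60.3 CPM in Skida1-deleted, 61.5 in MLL-ENL and 86.8 in Control in HSPC-like cells. In lymphoid progenitor-like cells it stood at 138 CPM in Skida1-deleted, 121 in MLL-ENL and 155 in Control. The ratio of MLL-ENL to Control for Irf7 was 0.709 [0.645–0.778] in HSPC-like cells. Usp18 stood at 8.77 CPM in Skida1-deleted, 12.9 in MLL-ENL and 21.1 in Control in HSPC-like cells, and MLL-ENL was lower than Control at 0.612 [0.5003–0.748].

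Of the 2′-5′ oligoadenylate synthetase family, whose active members make the signal for RNase L, Oasl2 was the one called in HSPC-like cells. Oasl2, an oligoadenylate synthetase-like protein, stood at 51.4 CPM in Skida1-deleted, 49.5 in MLL-ENL and 97.6 in Control in HSPC-like cells, a ratio of MLL-ENL to Control of 0.507 [0.459–0.559]. It stood at 70.4 CPM in Skida1-deleted, 74.8 in MLL-ENL and 125 in Control in lymphoid progenitor-like cells, 18.9 CPM in Skida1-deleted, 18.9 in MLL-ENL and 28.6 in Control in granulocyte progenitor-like cells and 18.01 CPM in Skida1-deleted, 19.3 in MLL-ENL and 29.6 in Control in megakaryocyte-like cells. Basophil-mast-like cells held 13.2 CPM in Skida1-deleted, 11.1 in MLL-ENL and 20.5 in Control and erythroid-like cells 4.35 CPM in Skida1-deleted, 4.88 in MLL-ENL and 3.83 in Control. MLL-ENL was called lower in 5 of the 5 classes that reached 5 CPM, though in granulocyte progenitor-like cells the call held under 1 of 13 alternatives. In HSPC-like cells Oas1a stood at 16.97 CPM in Skida1-deleted, 11.96 in MLL-ENL and 12.7 in Control. Oas2 stood at 12.6 CPM in Skida1-deleted, 10.9 in MLL-ENL and 9.06 in Control, Oas3 at 25.3 CPM in Skida1-deleted, 19.4 in MLL-ENL and 26.2 in Control and Oasl1 at 16.7 CPM in Skida1-deleted, 20.1 in MLL-ENL and 20.9 in Control. None of these 4 was past 1.5-fold in HSPC-like cells in either comparison. In lymphoid progenitor-like cells Oas2 was higher in MLL-ENL than in Control, with 20.7 CPM in Skida1-deleted, 19.4 in MLL-ENL and 12.7 in Control and a ratio of 1.54 [1.05–2.28], the one member called higher there. The Oas1 family holds near copies of Oas1a, and Oasl1 and Oasl2 are related, so reads may be split between copies.

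The sensors of nucleic acids were led by Ifi203, of the AIM2-like receptor family, a cluster of close relatives among which reads are hard to split. It stood at 197 CPM in Skida1-deleted, 181 in MLL-ENL and 294 in Control in HSPC-like cells, a ratio of MLL-ENL to Control of 0.618 [0.586–0.651]. It stood at 238 CPM in Skida1-deleted, 209.7 in MLL-ENL and 379.8 in Control in lymphoid progenitor-like cells, at 69.7 CPM in Skida1-deleted, 69.2 in MLL-ENL and 143 in Control in granulocyte progenitor-like cells and at 38.9 CPM in Skida1-deleted, 35.5 in MLL-ENL and 53.1 in Control in megakaryocyte-like cells. Basophil-mast-like cells held 26.7 CPM in Skida1-deleted, 11.4 in MLL-ENL and 29.2 in Control and erythroid-like cells 2.99 CPM in Skida1-deleted, 4.43 in MLL-ENL and 2.63 in Control, so the gene was close to absent from erythroid-like cells. Ifih1, the MDA5 sensor of long double-stranded RNA, was flat by comparison, at 16.8 CPM in Skida1-deleted, 18.6 in MLL-ENL and 29.5 in Control in HSPC-like cells and 16.0 CPM in Skida1-deleted, 16.8 in MLL-ENL and 20.4 in Control in erythroid-like cells. It stood at 18.3 CPM in Skida1-deleted, 19.2 in MLL-ENL and 37.1 in Control in lymphoid progenitor-like cells, 13.1 CPM in Skida1-deleted, 12.7 in MLL-ENL and 18.6 in Control in granulocyte progenitor-like cells, 16.0 CPM in Skida1-deleted, 18.03 in MLL-ENL and 27.98 in Control in megakaryocyte-like cells and 9.04 CPM in Skida1-deleted, 7.82 in MLL-ENL and 13.1 in Control in basophil-mast-like cells. The MLL-ENL to Control ratio for Ifih1 was past 1.5-fold in 4 of 6 classes. Zbp1, a sensor of Z-form nucleic acid, stood at 7.75 CPM in Skida1-deleted, 8.54 in MLL-ENL and 12.1 in Control in HSPC-like cells. It reached 1.5-fold in none of the 6 classes between Skida1-deleted and MLL-ENL or between MLL-ENL and Control, while the ratio of Skida1-deleted to Control in HSPC-like cells was 0.642 [0.4996–0.823], called lower.

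Of the immunity-related GTPases beside Irgm1, Ifi47 stood at 31.8 CPM in Skida1-deleted, 37.9 in MLL-ENL and 77.6 in Control in HSPC-like cells, a ratio of MLL-ENL to Control of 0.488 [0.437–0.546]. It stood at 40.4 CPM in Skida1-deleted, 44.9 in MLL-ENL and 104 in Control in lymphoid progenitor-like cells, 28.2 CPM in Skida1-deleted, 28.1 in MLL-ENL and 50.8 in Control in granulocyte progenitor-like cells and 19.8 CPM in Skida1-deleted, 19.6 in MLL-ENL and 43.5 in Control in megakaryocyte-like cells. Basophil-mast-like cells held 20.3 CPM in Skida1-deleted, 27.0 in MLL-ENL and 36.1 in Control and erythroid-like cells 8.63 CPM in Skida1-deleted, 9.19 in MLL-ENL and 10.2 in Control. Igtp stood at 11.3 CPM in Skida1-deleted, 12.2 in MLL-ENL and 18.03 in Control in HSPC-like cells and 16.0 CPM in Skida1-deleted, 19.2 in MLL-ENL and 32.8 in Control in lymphoid progenitor-like cells. In granulocyte progenitor-like cells Igtp stood at 6.82 CPM in Skida1-deleted, 8.16 in MLL-ENL and 13.2 in Control, in megakaryocyte-like cells at 5.95 CPM in Skida1-deleted, 6.46 in MLL-ENL and 6.56 in Control, in basophil-mast-like cells at 7.16 CPM in Skida1-deleted, 4.89 in MLL-ENL and 8.27 in Control and in erythroid-like cells at 3.44 CPM in Skida1-deleted, 3.66 in MLL-ENL and 3.50 in Control. Between Skida1-deleted and MLL-ENL neither was past 1.5-fold in any class, with ratios from 0.752 to 1.01 for Ifi47 and from 0.833 to 1.46 for Igtp, in contrast to Irgm1 of the same family. That difference between family members was not tested.

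The other effectors differed among themselves. Rtp4 stood at 68.2 CPM in Skida1-deleted, 96.1 in MLL-ENL and 152 in Control in HSPC-like cells, Ifi35 at 46.0 CPM in Skida1-deleted, 47.8 in MLL-ENL and 79.2 in Control and Ifi44 at 10.1 CPM in Skida1-deleted, 14.7 in MLL-ENL and 30.7 in Control. MLL-ENL was called lower than Control for these 3, at 0.632 [0.587–0.679], 0.604 [0.545–0.669] and 0.478 [0.399–0.571]. By contrast Rsad2, the enzyme viperin, stood at 58.3 CPM in Skida1-deleted, 55.8 in MLL-ENL and 52.0 in Control, Ifi27l2a, a mitochondrial protein, at 47.7 CPM in Skida1-deleted, 41.6 in MLL-ENL and 35.2 in Control, and Lgals3bp, a secreted glycoprotein, at 105 CPM in Skida1-deleted, 105 in MLL-ENL and 82.2 in Control. MLL-ENL was not lower than Control for these 3, with ratios of 1.07 [0.962–1.20], 1.18 [1.04–1.35] and 1.27 [1.17–1.38]. Xaf1, which binds the apoptosis inhibitor XIAP, stood at 68.8 CPM in Skida1-deleted, 73.2 in MLL-ENL and 83.5 in Control, Trim30a, a ubiquitin ligase, at 63.3 CPM in Skida1-deleted, 65.5 in MLL-ENL and 78.3 in Control and Parp14, an ADP-ribosyltransferase, at 52.0 CPM in Skida1-deleted, 56.9 in MLL-ENL and 77.4 in Control, and all 3 were within 1.5-fold.

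Outside HSPC-like cells, Lgals3bp stood at 104 CPM in Skida1-deleted, 103 in MLL-ENL and 95.2 in Control in lymphoid progenitor-like cells and 80.4 CPM in Skida1-deleted, 76.0 in MLL-ENL and 64.5 in Control in granulocyte progenitor-like cells. Megakaryocyte-like cells held 79.3 CPM in Skida1-deleted, 74.2 in MLL-ENL and 51.5 in Control, erythroid-like cells 52.8 CPM in Skida1-deleted, 54.0 in MLL-ENL and 45.4 in Control and basophil-mast-like cells 77.6 CPM in Skida1-deleted, 66.1 in MLL-ENL and 66.2 in Control. Its ratio of MLL-ENL to Control was above 1 in 5 classes, up to 1.44 [1.28–1.62] in megakaryocyte-like cells, and was 0.9996 [0.806–1.24] in basophil-mast-like cells. Ifi35 stood at 58.8 CPM in Skida1-deleted, 55.6 in MLL-ENL and 90.05 in Control in lymphoid progenitor-like cells and at 40.5 CPM in Skida1-deleted, 41.2 in MLL-ENL and 64.2 in Control in granulocyte progenitor-like cells. Megakaryocyte-like cells held Ifi35 at 37.4 CPM in Skida1-deleted, 33.3 in MLL-ENL and 52.0 in Control, basophil-mast-like cells 38.0 CPM in Skida1-deleted, 40.7 in MLL-ENL and 44.0 in Control and erythroid-like cells 53.1 CPM in Skida1-deleted, 52.7 in MLL-ENL and 58.4 in Control. In both fusion libraries the erythroid-like level of Ifi35 was no lower than the HSPC-like one. Ifi27l2a, which has the close relative Ifi27l2b, was higher in MLL-ENL than Control in megakaryocyte-like cells, with 13.8 CPM in Skida1-deleted, 15.6 in MLL-ENL and 5.38 in Control and a ratio of 2.90 [2.09–4.09].

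In erythroid-like cells 2 members, Rtp4 and Xaf1, were called higher in MLL-ENL than Control. Rtp4 stood at 15.1 CPM in Skida1-deleted, 19.9 in MLL-ENL and 11.4 in Control there, a ratio of MLL-ENL to Control of 1.74 [1.63–1.86]. The level in lymphoid progenitor-like cells was 99.2 CPM in Skida1-deleted, 127 in MLL-ENL and 203 in Control, a ratio of 0.624 [0.556–0.701]. In granulocyte progenitor-like cells it stood at 31.6 CPM in Skida1-deleted, 43.4 in MLL-ENL and 44.3 in Control and in basophil-mast-like cells at 33.5 CPM in Skida1-deleted, 52.1 in MLL-ENL and 64.0 in Control. The fusion library was thus above Control in erythroid-like cells and below it in the HSPC and lymphoid classes; the difference between classes was not tested. Xaf1 stood at 15.6 CPM in Skida1-deleted, 16.9 in MLL-ENL and 9.75 in Control in erythroid-like cells, a ratio of 1.73 [1.61–1.86]. Its levels elsewhere were 111 CPM in Skida1-deleted, 107 in MLL-ENL and 107 in Control in lymphoid progenitor-like cells, 39.4 CPM in Skida1-deleted, 35.2 in MLL-ENL and 36.7 in Control in granulocyte progenitor-like cells, 34.2 CPM in Skida1-deleted, 37.1 in MLL-ENL and 29.8 in Control in megakaryocyte-like cells and 28.6 CPM in Skida1-deleted, 19.2 in MLL-ENL and 21.3 in Control in basophil-mast-like cells. Without the low-depth clusters, the largest of which held 2968 erythroid-like cells of MLL-ENL, the erythroid ratios of MLL-ENL to Control were 1.67 for both genes.

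At the ends of the ratios of MLL-ENL to Control, a few members have not yet been given in their class. For lymphoid progenitor-like cells Ifit3 gave 0.499 [0.381–0.650], while Rsad2 stood at 92.8 CPM in Skida1-deleted, 96.7 in MLL-ENL and 65.3 in Control and Oas3 at 35.2 CPM in Skida1-deleted, 32.4 in MLL-ENL and 26.2 in Control, with 1.48 [1.25–1.75] and 1.24 [0.940–1.64]. Granulocyte progenitor-like cells held Rsad2 at 14.6 CPM in Skida1-deleted, 13.01 in MLL-ENL and 9.68 in Control, a ratio of 1.34 [1.03–1.75], and Ifit2 and Oas1a gave 1.18 [0.841–1.65] and 1.10 [0.818–1.46]. Megakaryocyte-like cells held Oas3 at 9.68 CPM in Skida1-deleted, 9.48 in MLL-ENL and 7.96 in Control, a ratio of 1.19 [0.874–1.63]. In erythroid-like cells Usp18 gave 0.677 [0.634–0.722], Irf7 stood at 13.8 CPM in Skida1-deleted, 14.7 in MLL-ENL and 17.2 in Control with 0.854 [0.803–0.908], and Trim30a at 13.5 CPM in Skida1-deleted, 13.6 in MLL-ENL and 9.98 in Control with 1.36 [1.27–1.47]. Basophil-mast-like cells held Ifit2 at 7.91 CPM in Skida1-deleted, 6.19 in MLL-ENL and 2.61 in Control and Rsad2 at 9.04 CPM in Skida1-deleted, 8.47 in MLL-ENL and 16.1 in Control, with 2.37 [0.910–7.25] and 0.526 [0.306–0.892], and both directions turned round after thinning to 3000 UMIs, to 0.646 for Ifit2 and 1.29 for Rsad2. Zbp1 stood at 6.03 CPM in Skida1-deleted, 8.80 in MLL-ENL and 6.09 in Control and Ifi27l2a at 7.16 CPM in Skida1-deleted, 14.0 in MLL-ENL and 11.8 in Control in that class, with 1.44 [0.731–2.98] and 1.19 [0.720–2.01], and Oas1a gave 1.42 [0.629–3.42].

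Summed over all kept cells, where the libraries also differ in their shares of each class, Irgm1 stood at 16.3 CPM in Skida1-deleted, 38.2 in MLL-ENL and 42.1 in Control and Ifit1 at 3.81 CPM in Skida1-deleted, 6.002 in MLL-ENL and 8.39 in Control, with ratios of Skida1-deleted to MLL-ENL of 0.426 [0.408–0.445] and 0.635 [0.577–0.698]. Rtp4 at 23.3 CPM in Skida1-deleted, 30.7 in MLL-ENL and 32.6 in Control and Usp18 at 9.13 CPM in Skida1-deleted, 11.5 in MLL-ENL and 16.8 in Control were next, with 0.759 [0.729–0.790] and 0.794 [0.744–0.846]. The highest ratios belonged to Isg15 at 12.99 CPM in Skida1-deleted, 9.36 in MLL-ENL and 35.9 in Control, Oas1a at 6.05 CPM in Skida1-deleted, 4.45 in MLL-ENL and 4.46 in Control, Ifitm1 at 105 CPM in Skida1-deleted, 81.8 in MLL-ENL and 188 in Control and Oas3 at 6.70 CPM in Skida1-deleted, 5.25 in MLL-ENL and 4.94 in Control, with 1.39 [1.30–1.48], 1.36 [1.24–1.49], 1.29 [1.26–1.32] and 1.27 [1.17–1.39]. Of these 8 members, Irgm1 and Ifit1 passed 1.5-fold. For MLL-ENL over Control in the same cells, the lowest ratios were 0.261 [0.247–0.275] for Isg15, 0.435 [0.427–0.444] for Ifitm1, 0.535 [0.516–0.554] for Ifi203 at 30.7 CPM in Skida1-deleted, 26.3 in MLL-ENL and 49.2 in Control and 0.599 [0.569–0.630] for Ifi47 at 13.2 CPM in Skida1-deleted, 13.8 in MLL-ENL and 23.1 in Control. The highest were 1.27 [1.22–1.31] for Irf9 at 40.4 CPM in Skida1-deleted, 43.9 in MLL-ENL and 34.7 in Control, 1.18 [1.15–1.22] for Lgals3bp at 61.9 CPM in Skida1-deleted, 60.9 in MLL-ENL and 51.5 in Control, 1.17 [1.12–1.22] for Xaf1 at 24.9 CPM in Skida1-deleted, 24.9 in MLL-ENL and 21.4 in Control and 1.11 [1.04–1.19] for Ifi27l2a at 10.5 CPM in Skida1-deleted, 10.4 in MLL-ENL and 9.35 in Control. The 4 lowest all passed 1.5-fold and the 4 highest did not.

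**Figure D4:**
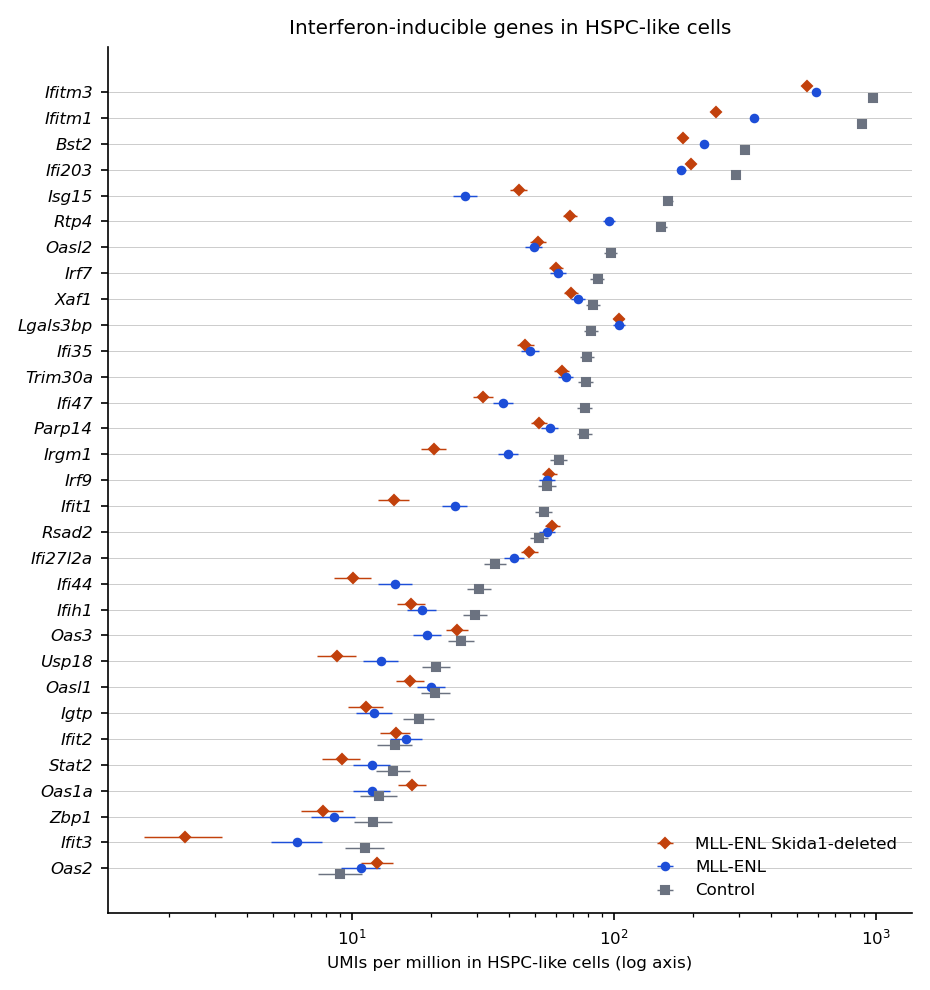
Level of each of the 31 members in HSPC-like cells, in CPM on a log axis, in the Skida1-deleted, MLL-ENL and Control libraries (1 library each; lines are exact 95% counting intervals), ordered by the Control level. Isg15 and Ifitm1 show wide gaps between Control and both fusion libraries, Irgm1, Ifit1 and Ifit3 step down from Control through MLL-ENL to Skida1-deleted, and Rsad2, Irf9 and Ifit2 lie together.

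Skida1-deleted cells were also set beside Control. In HSPC-like cells 17 of 31 members were lower in Skida1-deleted and 0 higher, beside 20.1% and 9.54% of all genes. The summed level was 0.538 [0.530–0.546] of that in Control. MLL-ENL enters one comparison as numerator and the other as denominator, so the ratios of the 2 comparisons above are not independent and no relation between them was computed.

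Per cell, UMIs were thinned to 3000 in every cell, which left out shallower cells. The HSPC-like cells left out numbered 18 in Skida1-deleted, 0 in MLL-ENL and 3 in Control, and the erythroid-like ones 293 in Skida1-deleted, 862 in MLL-ENL and 46 in Control. At least 5 member UMIs were then found in 69.8% [67.4–72.0] of HSPC-like cells in Skida1-deleted, 73.0% [70.3–75.6] in MLL-ENL and 93.7% [91.7–95.3] in Control. Before thinning the shares were 99.1% in Skida1-deleted, 99.7% in MLL-ENL and 100% in Control, at median depths of 8824 UMIs in Skida1-deleted, 10238.5 in MLL-ENL and 14746 in Control. The median thinned cell held 6 member UMIs in Skida1-deleted, 7 in MLL-ENL and 12 in Control. Of those UMIs, the 10% of cells with most held 22.7% in Skida1-deleted, 24.1% in MLL-ENL and 20.1% in Control.

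Lymphoid progenitor-like cells had at least 5 member UMIs in 88.0% in Skida1-deleted, 89.2% in MLL-ENL and 94.0% in Control, and before thinning 99.1% in Skida1-deleted, 99.3% in MLL-ENL and 100% in Control. Granulocyte progenitor-like cells gave 33.6% in Skida1-deleted, 32.7% in MLL-ENL and 70.1% in Control, and before thinning 94.6% in Skida1-deleted, 81.7% in MLL-ENL and 99.2% in Control. In granulocyte progenitor-like cells, as in HSPC-like cells, the share was highest in Control, while the lymphoid shares lie near the ceiling and are not compared. Megakaryocyte-like cells gave 42.3% in Skida1-deleted, 43.7% in MLL-ENL and 53.5% in Control, and before thinning 97.1% in Skida1-deleted, 99.1% in MLL-ENL and 99.4% in Control. Basophil-mast-like cells gave 43.5% in Skida1-deleted, 37.2% in MLL-ENL and 68.1% in Control, and before thinning 92.9% in Skida1-deleted, 88.4% in MLL-ENL and 88.4% in Control. Erythroid-like cells gave 8.62% in Skida1-deleted, 8.11% in MLL-ENL and 7.32% in Control and before thinning 90.1% in Skida1-deleted, 69.6% in MLL-ENL and 97.8% in Control, so unthinned shares cannot be read across depths. The shares of other classes lay above the erythroid share in each library.

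**Figure D5:**
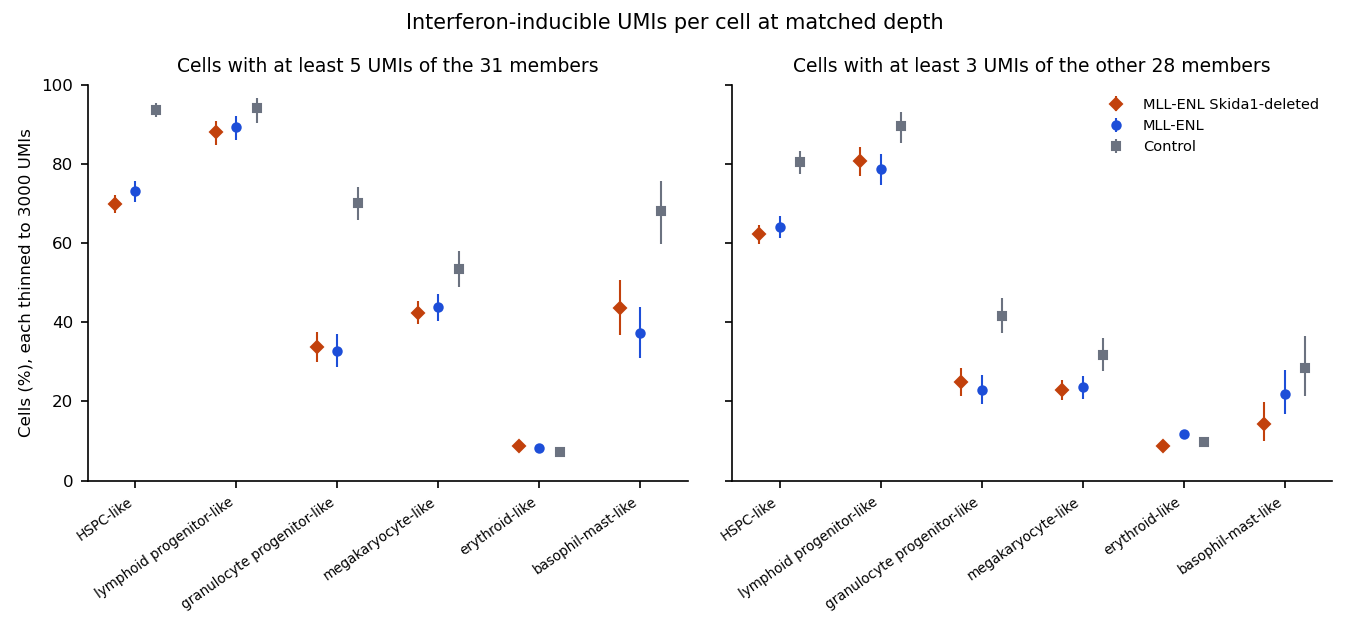
Share of cells, each thinned to 3000 UMIs, with at least 5 UMIs of the 31 members (left) and with at least 3 UMIs of the 28 members other than Ifitm1, Ifitm3 and Bst2 (right), by class in the Skida1-deleted, MLL-ENL and Control libraries (1 library each; lines are exact 95% binomial intervals). In HSPC-like cells the shares on the left are 69.8% in Skida1-deleted, 73.0% in MLL-ENL and 93.7% in Control, and in erythroid-like cells all lie under 9%.

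HSPC-like cells came from 2 clusters in all 3 libraries. The smaller one, led by Meg3, Mecom, Hlf and Procr, held 292 cells in Skida1-deleted, 291 in MLL-ENL and 242 in Control. Its summed member level was 3472 CPM in Skida1-deleted, 3880.2 CPM in MLL-ENL and 5404 CPM in Control. The larger one held 1945 CPM in Skida1-deleted, 2047 in MLL-ENL and 3489 in Control. The order of the libraries was the same in both clusters. For Irgm1 the smaller cluster held 26.0 CPM in Skida1-deleted, 45.2 in MLL-ENL and 69.4 in Control and the larger 19.9 CPM in Skida1-deleted, 38.5 in MLL-ENL and 59.4 in Control. The order was also the same for Ifitm1. It stood at 830.0 CPM in Skida1-deleted, 1031 in MLL-ENL and 1283 in Control in the smaller cluster. The larger held 173 CPM in Skida1-deleted, 214 in MLL-ENL and 767 in Control. Ifit1 stood at 27.7 CPM in Skida1-deleted, 67.2 in MLL-ENL and 97.0 in Control in the smaller and 12.8 CPM in Skida1-deleted, 16.8 in MLL-ENL and 41.1 in Control in the larger cluster. Between Skida1-deleted and MLL-ENL it was thus past 1.5-fold in the smaller cluster and within 1.5-fold in the larger one. Between MLL-ENL and Control, both Ifitm1 and Ifit1 were within 1.5-fold in the smaller cluster and past 1.5-fold in the larger one.

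Marker lists of other cells differed from Control in both directions. In HSPC-like cells the 11 monocyte-dendritic markers summed to 33.9 CPM in Skida1-deleted, 41.1 CPM in MLL-ENL and 69.9 CPM in Control, with Siglech at 0 in Skida1-deleted and Control and Batf3 at 0 in Skida1-deleted. The 9 macrophage markers summed to 1.73 CPM in Skida1-deleted, 2.56 in MLL-ENL and 8.14 in Control, with Cd5l and Timd4 at 0 in Skida1-deleted and Vsig4 at 0 in MLL-ENL. The 5 plasmacytoid dendritic markers summed to 3.71 CPM in Skida1-deleted, 3.57 in MLL-ENL and 3.77 in Control, with Klk1 at 0 in all 3 libraries. Opposite to the members, the 7 T and NK markers summed to 73.0 CPM in Skida1-deleted, 82.2 in MLL-ENL and 49.6 in Control, with Cd3e, Gzma and Ncr1 at 0 in all 3 libraries and Cd3g at 0 in Control. The 6 endothelial markers summed to 55.1 CPM in Skida1-deleted, 54.9 in MLL-ENL and 42.6 in Control, with Lyve1 at 0 in all 3. Hepatocyte markers, 7 in number and none at 0, summed to 15.05 CPM in Skida1-deleted, 11.5 in MLL-ENL and 8.47 in Control. The 5 stromal markers summed to 33.0 CPM in Skida1-deleted, 26.9 in MLL-ENL and 18.8 in Control, with Col3a1, Dcn and Lum at 0 in all 3 and Col1a1 at 0 in MLL-ENL and Control. Control was thus highest for the monocyte-dendritic and macrophage lists and lowest for these 4 lists. These sums do not show that such cells were present, since in MLL-ENL and Control the stromal sum came from Pdgfrb alone. The part of such cells, if any, in the members' levels was not tested. G2M genes summed to 6081 CPM in Skida1-deleted, 5184 CPM in MLL-ENL and 8175 CPM in Control. In granulocyte progenitor-like cells the monocyte-dendritic markers summed to 179 CPM in Skida1-deleted, 239 in MLL-ENL and 506 in Control, the same order as the members. Lymphoid progenitor-like cells held these markers at 77.7 CPM in Skida1-deleted, 97.5 in MLL-ENL and 214 in Control, also the order of the members. In megakaryocyte-like cells they stood at 10.05 CPM in Skida1-deleted, 8.55 in MLL-ENL and 9.36 in Control, another order. G2M genes in lymphoid progenitor-like cells summed to 4769 CPM in Skida1-deleted, 4231 in MLL-ENL and 6845 in Control. The part of such cells and of the cell cycle was not tested either.

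The other genes of the pathway came from a list of 123 genes, of which 120 were in the files. The interferons themselves were at or near 0: over all kept cells, 10 of 12 ligand genes had 0 UMIs in each library, Ifng had 1 UMI in Skida1-deleted and 0 in MLL-ENL and Control, and Ifnk UMIs numbered 3 in Skida1-deleted, 3 in MLL-ENL and 1 in Control. A count of 0 was read as up to 3 UMIs per library, a 1-sided 95% bound. Receptors were present. In HSPC-like cells Ifnar1 stood at 36.8 CPM in Skida1-deleted, 43.9 in MLL-ENL and 36.7 in Control, and its partner Ifnar2 at 124 CPM in Skida1-deleted, 143 in MLL-ENL and 119 in Control. The gamma receptor chain Ifngr1 stood at 122 CPM in Skida1-deleted, 132 in MLL-ENL and 86.3 in Control, called higher in MLL-ENL than Control at 1.53 [1.42–1.66]. Its partner Ifngr2 stood at 25.1 CPM in Skida1-deleted, 28.9 in MLL-ENL and 32.9 in Control. Il10rb, shared by lambda interferons and other cytokines, stood at 31.1 CPM in Skida1-deleted, 33.9 in MLL-ENL and 40.8 in Control, and Ifnlr1, the lambda-specific chain, had 0 UMIs in HSPC-like cells.

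Of the kinases, Jak1 stood at 150.1 CPM in Skida1-deleted, 142 in MLL-ENL and 171 in Control in HSPC-like cells, Jak2 at 29.2 CPM in Skida1-deleted, 28.1 in MLL-ENL and 21.5 in Control and Tyk2 at 9.03 CPM in Skida1-deleted, 11.2 in MLL-ENL and 13.8 in Control. Stat3, a STAT protein used by many cytokines, stood at 78.4 CPM in Skida1-deleted, 77.0 in MLL-ENL and 62.6 in Control. None of these 4 genes was past 1.5-fold between Skida1-deleted and MLL-ENL or between MLL-ENL and Control. RNA of the signalling chain was thus present in all 3 libraries.

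Between Skida1-deleted and MLL-ENL, 1 of 82 listed genes with at least 5 CPM in HSPC-like cells was lower, Irgm2, beside 1.5% of all genes, and 0 were higher, beside 2.05%, so these counts are near the shares of all genes. The 9 class I presentation genes at that level, which include interferon targets, had a median log2 ratio of -0.37, none past 1.5-fold. B2m, the shared light chain, stood at 597 CPM in Skida1-deleted, 846 in MLL-ENL and 793 in Control, a ratio of 0.705 [0.686–0.725]. H2-D1, a class I heavy chain, gave 0.704 [0.672–0.737], and Tap2, a peptide transporter chain, 0.689 [0.617–0.770]. At the other end Ddx60, a helicase, gave 1.44 [1.20–1.73]. Over all kept cells 2 of 66 were lower and 0 higher, beside 0.742% and 1.05% of all genes.

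Between MLL-ENL and Control, 22 of 86 listed genes were lower in HSPC-like cells and 3 higher, beside 16.7% and 7.81% of all genes. The median log2 ratio was -0.30, beside -0.13 for all genes tested. Slfn2, a Schlafen protein that keeps lymphocytes quiescent in mice, had the lowest ratio, with 5.76 CPM in Skida1-deleted, 6.99 in MLL-ENL and 40.1 in Control and 0.174 [0.138–0.219]. Ly6a, which encodes the stem-cell marker Sca-1 and responds to interferon, stood at 25.2 CPM in Skida1-deleted, 25.5 in MLL-ENL and 58.1 in Control, a ratio of 0.438 [0.383–0.5005]. Socs1, the inhibitor of JAK kinases, stood at 5.76 CPM in Skida1-deleted, 6.83 in MLL-ENL and 15.1 in Control, a ratio of 0.453 [0.347–0.587]. The 3 higher genes were Ifngr1, Uba7 and Lgals9. Uba7, the enzyme that activates Isg15 for conjugation, stood at 49.0 CPM in Skida1-deleted, 46.5 in MLL-ENL and 26.2 in Control, a ratio of 1.78 [1.55–2.04], opposite in direction to Isg15 itself. Lgals9, a galectin, stood at 299 CPM in Skida1-deleted, 273 in MLL-ENL and 155 in Control, a ratio of 1.76 [1.66–1.86]. Over all kept cells 13 of 73 were lower and 3 higher, beside 12.2% and 4.95% of all genes.

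A few further pathway genes stood at the ends of the ratios. In HSPC-like cells Parp12, Trim30d and Oas1c gave ratios of Skida1-deleted to MLL-ENL of 1.21 [0.962–1.53], 1.16 [0.965–1.39] and 1.15 [0.845–1.58], and Ifi213 and Trim21 gave ratios of MLL-ENL to Control of 0.447 [0.319–0.620] and 1.48 [1.19–1.85]. Over all kept cells Trim25 gave 0.729 [0.706–0.753] at the low end of the first comparison, and Sp100, Sp110, Slfn8 and Psmb10 gave 1.16 [1.11–1.22], 1.16 [1.12–1.20], 1.16 [1.07–1.25] and 1.15 [1.13–1.18] at the high end, all within 1.5-fold. In the second comparison over all kept cells, Slfn2 at 2.05 CPM in Skida1-deleted, 1.78 in MLL-ENL and 10.9 in Control and Ifi209 at 1.44 CPM in Skida1-deleted, 1.93 in MLL-ENL and 6.73 in Control had the lowest ratios, 0.163 [0.145–0.184] and 0.287 [0.254–0.323], followed by Tor3a and Ly6a with 0.501 [0.465–0.541] and 0.515 [0.470–0.564]. Slfn2 thus had the lowest ratio both in HSPC-like cells and over all kept cells. The highest ratios over all kept cells were 1.63 [1.49–1.78] for Socs1, 1.57 [1.48–1.68] for Uba7, 1.54 [1.42–1.68] for Trim21 and 1.45 [1.38–1.52] for Dtx3l. Socs1 was lower in MLL-ENL than Control in HSPC-like cells and higher over all kept cells.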

How the data were processed

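Whole-number UMI counts per gene and cell barcode were used as deposited. Per the file headers they come from Cell Ranger 6.1.2, while the submitters' processing notes name Cell Ranger 6.0.1 and genome build mm10; the cause of the difference was not tested. Surface tag counts were not used. Cells with at least 1000 gene UMIs, 500 genes and under 10% mitochondrial UMIs were kept, and doublets marked by Scrublet were removed with scanpy 1.11.5 (5.88% of Skida1-deleted, 3.15% of MLL-ENL and 6.68% of Control cells). Clustering used 2000 variable genes standardized within each library, 30 principal components, 15 neighbours and Leiden resolution 1.0. Standardization within libraries was chosen after first clusterings had split Control from the fusion libraries. Low-depth clusters had a median depth under 1/3 of the library's, B-lineage-like and basophil-mast-like clusters aside. Clusters were named from marker lists, and counts were summed per class and library.

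Intervals are exact: Poisson for levels, conditional binomial for ratios and Clopper-Pearson for shares (scipy 1.17.1). A count of 0 was read as up to 3 UMIs, a 1-sided 95% bound set apart from these intervals. edgeR 4.0.16 served for TMM factors as an alternative scaling, and no count model was fitted because each group had 1 library. The scripts that compute ratios and calls were tested on simulated counts. Named genes were the 10 members with the highest level, those past 1.5-fold in the same direction in at least 3 classes, and the 4 highest and 4 lowest ratios per comparison and class with at least 5 CPM and 20 UMIs. Members named by their ratios alone are given in the classes where they stood at an end, not in every class. The other members are given in HSPC-like cells, and Oas2 in lymphoid progenitor-like cells and other genes behind small counts were named after their values were seen. The members and lists were chosen with earlier results of these data known. Alternatives varied the scaling, cell filter, doublet removal, depth, clustering, class assignment and minimum level. Promoters came from RefSeq (GRCm38.p6).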

Additional observations from a re-analysis of the deposited data

Results flagged for a closer look

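Rtp4 differed in direction between classes for MLL-ENL over Control. In lymphoid progenitor-like cells it stood at 99.2 CPM in Skida1-deleted, 127 CPM in MLL-ENL and 203 CPM in Control, a ratio of MLL-ENL to Control of 0.624. In erythroid-like cells it stood at 15.1 CPM in Skida1-deleted, 19.9 CPM in MLL-ENL and 11.4 CPM in Control, a ratio of 1.74, and 1.67 without the low-depth clusters. With 1 library per group, the difference between the classes was not tested.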

How the results depend on the processing

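No paired analysis was possible because each group had 1 library. In HSPC-like cells, the 3 members lower in Skida1-deleted than MLL-ENL became 1 with a minimum of 30 CPM. The 1 member higher, Isg15, became 0 with no doublet removal, doublets at the expected rate, Leiden resolution 0.5 or 2.0, no genes left out of the variable genes, classes of the nearest Control cells, standardization over all cells, all kept cells and 4 progenitor and monocyte classes summed under both standardizations. After thinning the 1 higher member was another, with Isg15 at 1.40. The summed ratio of 0.905 became 0.923 with TMM, 0.925 with size factors, 0.889 without the top 50 genes, 0.983 with the strict filter, 0.886 with standardization over all cells and 0.982 over all kept cells, and it stayed below 1 in each.

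For MLL-ENL over Control in HSPC-like cells, the 14 lower members became 5 with the strict filter and 5 over all kept cells, and the 0 higher became 2 with the strict filter. Shares of all genes past 1.5-fold are given for the main setting and over all kept cells only. The summed ratio of 0.594 became 0.636 with TMM, 0.634 with size factors, 0.605 without the top 50 genes, 0.684 with the strict filter, 0.631 with no doublet removal, 0.646 with doublets at the expected rate and 0.613 after thinning. It became 0.624 and 0.634 at resolutions 0.5 and 2.0, 0.639 with no genes left out, 0.616 by marker score, 0.619 by nearest Control cells, 0.737 over all kept cells, and 0.631 and 0.634 with 4 classes summed under the within-library and the overall standardization. The causes were not tested.

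HSPC-like cells with at least 5 member UMIs made up 99.1% in Skida1-deleted, 99.7% in MLL-ENL and 100% in Control unthinned, and 94.0%, 96.2% and 99.3% in those groups at 6000 UMIs. The ISRE share of 20% on the gene's strand was 56.0% on either strand and 92.0% with one mismatch, where 38.9% of all genes matched. Single calls turned round in 6 cases, whose cause was not tested. For Skida1-deleted over MLL-ENL by marker score, Ifitm1 in erythroid-like cells gave 0.980 and Ifi27l2a in basophil-mast-like cells 1.08. For MLL-ENL over Control, Ifit3 in HSPC-like cells gave 1.18 with the strict filter. In basophil-mast-like cells Ifit2 gave 0.646 and Rsad2 1.29 after thinning, and Igtp 1.03 with doublets at the expected rate.

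Of 952 values of called members under alternatives, 893 stayed past 1.5-fold or within the main interval, 53 did neither and 6 turned round. Counts in the other classes stayed within 1.5 times the main count in 199 of 308 cases, and sums in 52 of 134 within the main interval. Lymphoid progenitor-like cells could not be followed under 7 alternatives, nor HSPC-like and granulocyte progenitor-like cells for MLL-ENL over Control with standardization over all cells, nor basophil-mast-like cells for that comparison with the strict filter, because a library held under 100 cells of the class. With 1 library per group, depth narrows counting error only.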

Other observations

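B-lineage-like cells were too few for calls, with 101 in Skida1-deleted, 93 in MLL-ENL and 45 in Control. Levels and a summed ratio are given, and no member is called. The 31 members summed to 1007 CPM in Skida1-deleted, 941 CPM in MLL-ENL and 1641 CPM in Control. Ifi27l2a stood at 252 CPM in Skida1-deleted, 224 CPM in MLL-ENL and 154 CPM in Control, above its level in HSPC-like cells of each library. The summed ratio of MLL-ENL to Control was 0.573 [0.508–0.648].

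The class I presentation genes were also read in erythroid-like cells, where 3 of 9 were lower in Skida1-deleted than MLL-ENL and 0 higher, beside 1.02% and 1.05% of all genes. Their median log2 ratio was -0.28, beside -0.04 for all genes tested. Over all kept cells B2m stood at 213 CPM in Skida1-deleted and 304 CPM in MLL-ENL, a ratio of 0.702 [0.693–0.711], and Tap2 at 21.2 CPM in Skida1-deleted and 32.3 CPM in MLL-ENL, a ratio of 0.658 [0.632–0.686]. Over the same cells Socs1 stood at 4.75 CPM in Skida1-deleted and 7.89 CPM in MLL-ENL, a ratio of 0.602 [0.553–0.655].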
